A study of Rattus norvegicus with 21 samples.

Results

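The 6 genes described here encode the pathway that builds fatty acids from citrate, together with regulators of it. They were chosen as named members of the pathway, with earlier results of these data known, and were found by identifier and chromosome among 26404 Ensembl genes counted in rat renal cortex, and all 6 passed the filter on low counts that left 14664 genes for testing. The genes are Srebf1 (ENSRNOG00000003463), Acly (ENSRNOG00000016924), Acaca (ENSRNOG00000034013), Fasn (ENSRNOG00000045636), Scd (ENSRNOG00000013552) and Thrsp (ENSRNOG00000012404). ATP citrate lyase (Acly) cleaves cytosolic citrate to acetyl-CoA, acetyl-CoA carboxylase alpha (Acaca) converts it to malonyl-CoA, fatty acid synthase (Fasn) assembles palmitate, and stearoyl-CoA desaturase (Scd) turns saturated into monounsaturated fatty acids. Srebf1 encodes the transcription factor SREBP-1, which is released from membranes by proteolysis and activates these enzyme genes in liver and fat in response to insulin. Thrsp, also called Spot 14, is a thyroid hormone-responsive protein tied to lipid synthesis in liver, adipose tissue and mammary gland.

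RNA-seq was performed on renal cortex of male rats aged 37 weeks in 3 groups. SD rats are Sprague Dawley healthy controls (n=6). SHAM rats are Zucker Diabetic Sprague Dawley (ZDSD) rats, an obese diabetic strain, that underwent a sham operation and were fed freely (n=7 used, of 9). DMT rats (n=6), called medical bypass in the labels, are sham-operated ZDSD rats on a restricted daily ration with fenofibrate, metformin, rosuvastatin, ramipril and liraglutide. Diet and the drugs were given together and cannot be told apart, while SHAM and SD rats differ in strain, disease and operation at once. The labels mark SD and SHAM libraries, but not DMT libraries, as new analyses of earlier samples, and they give the same kit for all. Whether the groups were sequenced together is not stated in them. Nothing states that the rats were littermates or otherwise linked.

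Total counts were 14502127 to 23995113 in SHAM rats, 20896370 to 27597901 in SD rats and 22308943 to 26812590 in DMT rats. SHAM rats 343 and 348, with 121511 and 101534 counts, were left out. Expression is given as CPM, counts scaled by TMM to a library of 1000000, and 3 counts equal 0.109 to 0.207 CPM. A gene was called altered at an adjusted p-value under 0.05 (edgeR quasi-likelihood test, Benjamini-Hochberg over all 14664 genes) with at least a 1.3-fold difference. Renal cortex is a mixed tissue, and in such bulk samples fewer cells of a type and less RNA per cell cannot be told apart. Kidney and adipocyte marker genes were not analysed here, because the files give identifiers without symbols, so the labelled tissue was not checked against its markers.

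Before the results, 3 libraries have to be named. DMT rat 329 and SHAM rats 321 and 340 were far above the other rats of their groups in Scd and Thrsp. In rat 329, 49 of the tested genes were at least 4-fold above the median of the other DMT rats. In SHAM rats 340 and 321 the numbers were 69 and 33, whereas the other 16 rats had 0 to 12 such genes. In all 3 rats 23 genes were high, and the pairs among these rats shared 24 (329 and 321), 38 (329 and 340) and 32 (321 and 340). The other 168 pairs of rats shared at most 12 (median 0). Each of those pairs holds a rat with at most 12 such genes, so none could share more, and the numbers are a description and no test. None of the 6 genes is among the 23, since Scd in rat 321 was 3.79-fold above the median and Thrsp did not reach 4-fold there after 0.5 CPM was added to every value. Results are therefore also given without these 3 rats. As the rats were singled out by Scd and Thrsp, the values of these 2 genes without them are a description and no test. Marker genes of other cell types were not analysed in these libraries either, so whether they hold other tissue was not checked.

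On the rn5 assembly, Srebf1, Acaca, Acly and Fasn lie in this order on chromosome 10, separated by 25.1, 16.6 and 21.3 Mb, while Thrsp and Scd are on chromosome 1. Srebf1 spans chr10:46326907-46347948 on the reverse strand with 3430 bases of exon, Acly chr10:88185495-88236092 on the reverse strand with 4327, Acaca chr10:71459842-71630271 on the forward strand with 6228, and Fasn chr10:109579049-109597219 on the reverse strand with 9143. Scd spans chr1:271602887-271615702 with 4690 bases of exon and Thrsp chr1:168587726-168592099 with 1283, both on the reverse strand. None shares an exon with another gene of the same strand. Srebf1 overlaps 1 gene of the opposite strand, from which strand-specific counting separates it. The spans of 5 genes were 95.6% to 101.1% of those of the same-named RefSeq genes. The Acaca span was 65.0% of the RefSeq one, and whether its counts miss exons was not checked. Gene counts do not separate the SREBP-1a and SREBP-1c transcripts of Srebf1.

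Of the 6 genes, Srebf1 had the highest level per kilobase of exon in DMT rats, and it was higher in DMT than in SHAM rats without overlap. Its expression was 234.4 to 365 CPM in the 6 DMT rats (median 255), 91.7 to 144 CPM in the 7 SHAM rats (median 107) and 132 to 165 CPM in the 6 SD rats (median 161). DMT rat 341, at 365 CPM, stood above the others of its group, which reached at most 282 CPM. The fold-change in DMT vs SHAM was 2.52 (95% confidence interval 2.15 to 2.95, log2 fold-change 1.33 ± 0.11 standard error, adjusted p=5.16e-08, edgeR). Srebf1 was also lower in SHAM than in SD rats, at 0.71 of the SD level (log2 fold-change -0.49 ± 0.11, adjusted p=0.00223, edgeR), although SHAM rat 311, with 144 CPM, lay within the SD range. DMT rats exceeded SD rats as well, by 1.79-fold (log2 fold-change 0.84 ± 0.11, adjusted p=2.02e-05, edgeR). When the 1.3-fold threshold was tested in the model (glmTreat), the difference between SHAM and SD rats was not called (adjusted p=0.401).

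Because Srebf1 had the smallest adjusted p-value of the 6 genes in DMT vs SHAM and Acly was not called, the 250 bases before their annotated transcription starts are shown from RefSeq, on assembly GRCr8. RefSeq promoters matched 4 of the 6 genes. The tables hold 2 windows for Srebf1, at chr10:45529165-45529414 and chr10:45519011-45519260, and 1 for Acly, at chr10:85963632-85963881, all on the reverse strand. Capitals mark matches, on either strand, to the sterol regulatory element TCACNCCAC, the E-box CANNTG, the CCAAT box CCAAT, the GC box GGGCGG and the nuclear receptor half-site AGGTCA. No matches overlapped.
Srebf1, outer start: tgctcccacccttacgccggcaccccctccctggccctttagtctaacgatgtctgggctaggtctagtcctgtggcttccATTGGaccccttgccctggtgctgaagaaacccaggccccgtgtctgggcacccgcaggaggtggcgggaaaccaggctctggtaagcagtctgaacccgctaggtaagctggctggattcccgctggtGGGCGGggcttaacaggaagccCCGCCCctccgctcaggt
Srebf1, inner start: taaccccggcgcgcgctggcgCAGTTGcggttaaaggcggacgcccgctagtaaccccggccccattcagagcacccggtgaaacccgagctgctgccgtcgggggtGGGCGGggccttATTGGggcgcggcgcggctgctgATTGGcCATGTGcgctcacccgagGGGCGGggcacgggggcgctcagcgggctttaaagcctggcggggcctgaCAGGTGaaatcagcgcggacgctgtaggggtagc
Acly: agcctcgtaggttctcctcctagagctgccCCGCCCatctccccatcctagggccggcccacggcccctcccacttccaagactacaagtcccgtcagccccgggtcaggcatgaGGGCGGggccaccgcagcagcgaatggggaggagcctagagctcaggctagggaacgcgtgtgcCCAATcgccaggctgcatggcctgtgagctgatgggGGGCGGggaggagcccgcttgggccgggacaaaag

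The inner Srebf1 window held 3 E-boxes, 2 CCAAT boxes and 2 GC boxes, the outer one 1 CCAAT box and 2 GC boxes, and the Acly window 1 CCAAT box and 3 GC boxes. The window of Thrsp held 1 CCAAT box and 1 GC box, and that of Scd none of the 5 motifs. Over all 33469 RefSeq windows of the same length, 65.5% held an E-box, 34.0% a CCAAT box, 30.5% a GC box, 14.1% the half-site and 0.974% the sterol regulatory element. These matches are letters in a short window and were not compared with binding data.

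Fasn, which carries out the assembly of palmitate, was higher in all DMT rats than in any other rat. It reached 177 to 265 CPM in DMT rats (median 232), compared with 112 to 139 CPM in SHAM rats (median 124) and 133 to 157 CPM in SD rats (median 146). The 6 DMT rats varied more (coefficient of variation 15.2%) than SHAM (7.13%) and SD rats (5.60%), with rats 316 and 328 at the low end. The fold-change in DMT vs SHAM was 1.78 (95% confidence interval 1.58 to 1.99, log2 fold-change 0.83 ± 0.08, adjusted p=3.76e-07, edgeR) and in DMT vs SD 1.51 (log2 fold-change 0.59 ± 0.08, adjusted p=2.51e-05, edgeR). SHAM rats were at 0.85 of the SD level (adjusted p=0.0278, edgeR), a difference below the 1.3-fold threshold, so that Fasn was not called there.

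Acaca, whose product is the substrate of Fasn, was also higher in every DMT rat than in any SHAM or SD rat, by a smaller factor. Its expression was 68.4 to 79.0 CPM in DMT rats (median 73.4), 48.5 to 64.6 CPM in SHAM rats (median 53.1) and 41.3 to 51.8 CPM in SD rats (median 44.2). The fold-change in DMT vs SHAM was 1.33 (95% confidence interval 1.20 to 1.48, log2 fold-change 0.41 ± 0.07, adjusted p=0.000412, edgeR), just above the 1.3-fold threshold. Without rats 329, 321 and 340 it was 1.29-fold with an adjusted p-value of 0.0026 (edgeR) and hence not called, beside 13.2% of the 14708 genes tested that were called, and when the threshold was tested in the model the adjusted p-value was 0.986. The difference in DMT vs SD was 1.59-fold (log2 fold-change 0.67 ± 0.07, adjusted p=1.79e-06, edgeR). In contrast to Srebf1, Fasn and Acly, the estimate for SHAM relative to SD rats was above 1, at 1.20-fold (adjusted p=0.0103, edgeR), below the 1.3-fold threshold.

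Acly, which supplies acetyl-CoA, was not called in any of the 3 comparisons. It had 157 to 184 CPM in DMT rats (median 165), 139 to 173 CPM in SHAM rats (median 157) and 169 to 202 CPM in SD rats (median 183). The groups overlapped in each comparison. The 95% confidence interval of the fold-change in DMT vs SHAM ran from 0.99 to 1.16 (adjusted p=0.193, edgeR) and so lay below 1.3-fold. In SHAM vs SD the fold-change was 0.84 (95% confidence interval 0.78 to 0.91, adjusted p=0.00177, edgeR), again short of the 1.3-fold threshold, and in DMT vs SD it was 0.90 (adjusted p=0.0504, edgeR).

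**Figure D1:**
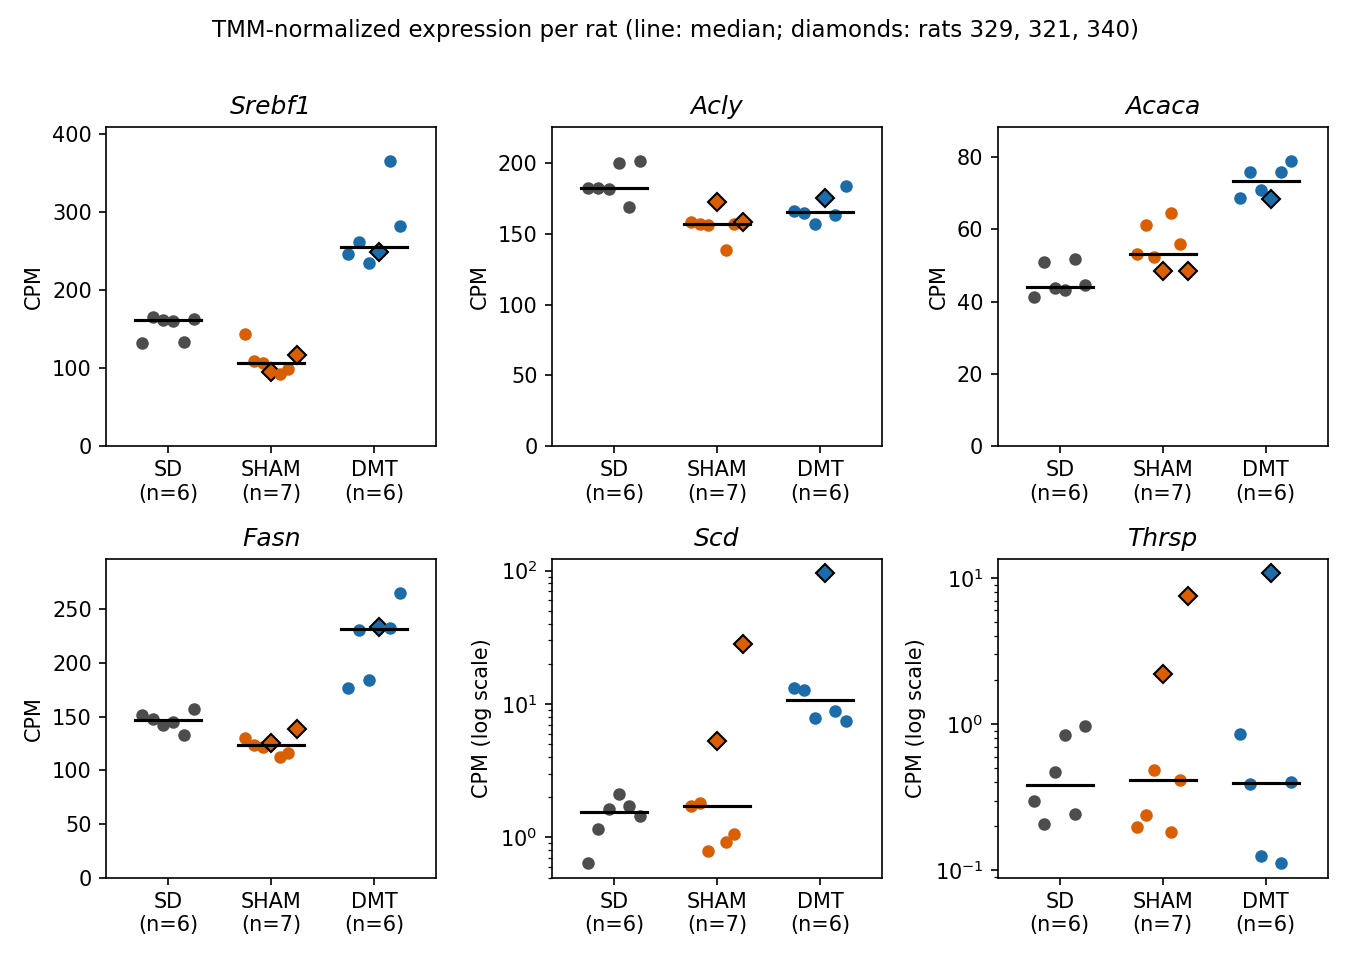
TMM-normalized CPM (vertical axes, logarithmic for Scd and Thrsp) of the 6 genes in SD (n=6), SHAM (n=7) and DMT rats (n=6). Each point is a rat, horizontal lines are medians, and diamonds mark DMT rat 329 and SHAM rats 321 and 340, which are the highest of their groups in Scd and Thrsp. Srebf1, Acaca and Fasn show no overlap between DMT and SHAM rats.

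Across the pathway, 3 of 6 genes were called higher in DMT vs SHAM (Srebf1, Fasn and Acaca) and 0 lower, whereas 4.12% of all genes tested were called higher and 11.5% in either direction. The same 3 genes were the ones whose DMT and SHAM rats did not overlap, which held for 7.72% of all genes. The median log2 fold-change of the 6 genes was 0.62, and that of all genes tested was 0.00. In SHAM vs SD, 1 of 6 genes was called (Srebf1, lower), beside 18.3% of all genes in either direction and 7.95% lower, and the median log2 fold-change of the 6 genes was 0.01. That median rested on Scd and Thrsp, since without rats 329, 321 and 340 it was -0.28 with 5 of 6 estimates below 0, while the median over all genes was 0.01. An unadjusted p-value under 0.05 was found for 4 of the 6 genes there, compared with 45.7% of all genes. None of the 6 genes separated SHAM from SD rats without overlap, which 8.61% of all genes did. In DMT vs SD, 4 of 6 genes were called higher (Srebf1, Fasn, Acaca and Scd), compared with 8.01% of all genes called higher and 18.2% in either direction. These 4 genes were also without overlap, compared with 16.9% of all genes. The comparisons share groups of rats and are not independent of each other.

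**Figure D2:**
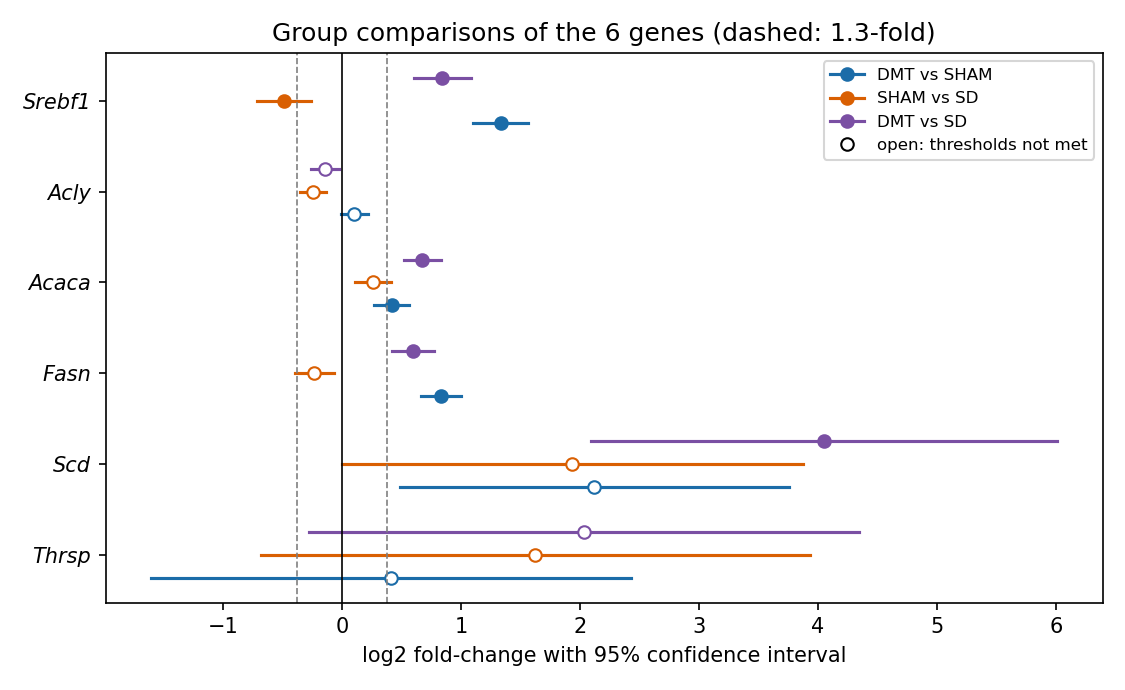
Log2 fold-change (horizontal axis) of each gene in the 3 comparisons between groups, with 95% confidence intervals from the edgeR model. Filled points met both thresholds, open points did not, and dashed lines mark 1.3-fold. Intervals are narrow for Srebf1, Acly, Acaca and Fasn and several log2 units wide for Scd and Thrsp.

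As Acly was not called in any comparison, the counts of Srebf1, Acaca and Fasn were divided by those of Acly in the same rat, a ratio that does not depend on library scaling. Acly was chosen as the denominator after its values and those of the other genes had been seen, so the ratios restate these values within each rat and are given without a test. Acly itself was lower in SHAM than in SD rats by an estimate of -0.25 log2 units, which enters every ratio between these groups. The ratio of Fasn to Acly counts was 1.31 ± 0.15 (SD, n=6) in DMT, 0.79 ± 0.05 (SD, n=7) in SHAM and 0.78 ± 0.04 (SD, n=6) in SD rats. In single rats it was 1.07 to 1.44 in DMT, 0.73 to 0.87 in SHAM and 0.73 to 0.83 in SD rats, so that DMT rats stood apart and SHAM and SD rats overlapped. The mean in DMT rats was 0.72 log2 units above that in SHAM rats, and SHAM and SD rats were 0.01 log2 units apart, the estimates of the single genes being -0.23 for Fasn and -0.25 for Acly.

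For Srebf1 per Acly, the ratio was 1.63 ± 0.30 (SD, n=6) in DMT, 0.69 ± 0.11 (SD, n=7) in SHAM and 0.82 ± 0.07 (SD, n=6) in SD rats. Again the DMT rats, at 1.42 to 2.23, did not overlap the SHAM rats, at 0.54 to 0.91. SHAM rats overlapped SD rats, at 0.72 to 0.90. The ratio of Acaca to Acly took a different order, with 0.25 ± 0.04 (SD, n=6) in SD, 0.35 ± 0.06 (SD, n=7) in SHAM and 0.44 ± 0.03 (SD, n=6) in DMT rats. The mean differed by 0.50 log2 units between SD and SHAM and by 0.32 between SHAM and DMT rats. Neighbouring groups overlapped, and SHAM rats alone ranged from 0.28 (rat 321) to 0.47 (rat 333), which reached the highest DMT rat. In SHAM vs SD the estimate for Acaca alone was 0.26 log2 units and it was not called, so that the step in the ratio also holds the lower Acly of SHAM rats.

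**Figure D3:**
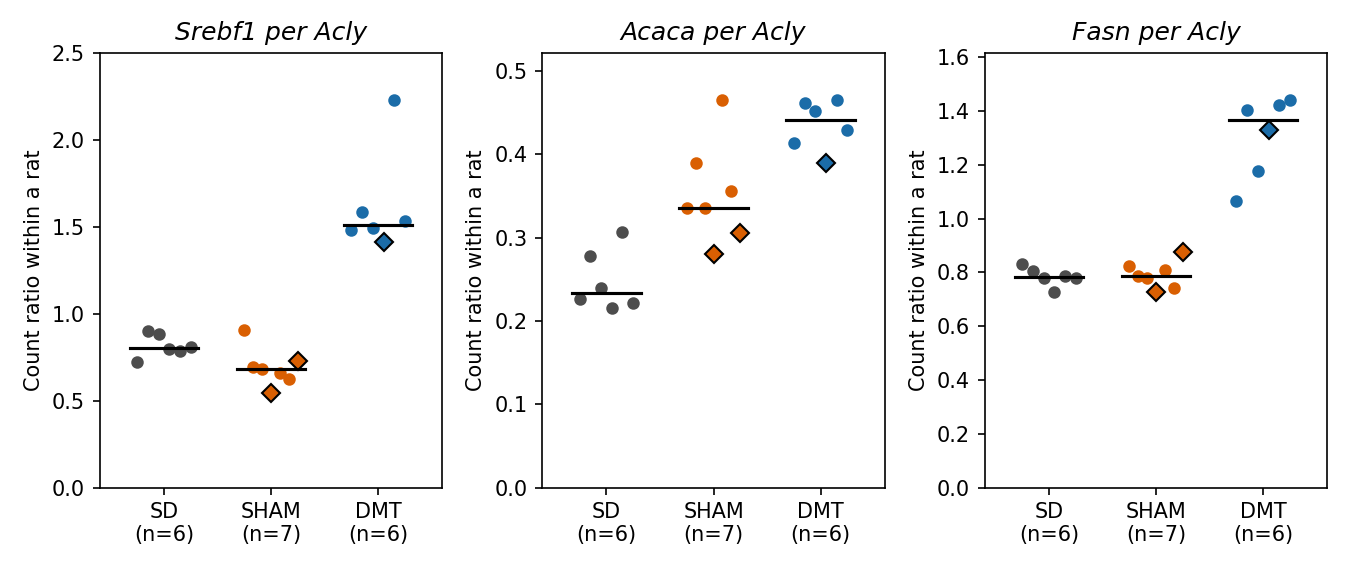
Ratio of the counts of Srebf1, Acaca and Fasn to those of Acly within each rat (vertical axes from 0) by group; points are rats, lines medians, and diamonds rats 329, 321 and 340. Fasn per Acly lies between 1.07 and 1.44 in DMT rats and at or below 0.87 in the others, while the mean of Acaca per Acly is 0.25 in SD, 0.35 in SHAM and 0.44 in DMT rats, with overlap between neighbouring groups.

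Scd, the desaturase, was expressed at a low level in SD rats and was higher in DMT than in SD rats, with a large spread. DMT rats had 13.2 (rat 316), 12.6 (rat 325), 7.78 (rat 328), 95.6 (rat 329), 8.86 (rat 341) and 7.51 CPM (rat 347). SHAM rats had 1.70 (rat 311), 1.81 (rat 315), 0.795 (rat 317), 5.24 (rat 321), 0.919 (rat 333), 1.06 (rat 334) and 28.4 CPM (rat 340). SD rats lay between 0.641 and 2.13 CPM (median 1.54). Every DMT rat was therefore above every SD rat and above 6 of 7 SHAM rats, and only SHAM rat 340 entered the DMT range.

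The fold-change of Scd in DMT vs SD was 16.6 (95% confidence interval 4.27 to 64.5, log2 fold-change 4.05 ± 0.94, adjusted p=0.00275, edgeR). In DMT vs SHAM it was 4.35 (95% confidence interval 1.40 to 13.5, log2 fold-change 2.12 ± 0.78), and with an adjusted p-value of 0.062 (edgeR) the gene was not called. The estimate and the call rested on single rats. Without SHAM rat 340 the log2 fold-change was 3.65, whereas without DMT rat 329 it was 0.84. Both rats were singled out by Scd, so these values are a description. Without rats 329, 321 and 340 together, DMT rats had 9.99 ± 2.71 CPM (SD, n=5), SHAM rats 1.26 ± 0.47 CPM (SD, n=5) and SD rats 1.45 ± 0.51 CPM (SD, n=6), with no overlap between DMT and the others. The estimated fold-change was then 7.92 in DMT vs SHAM and 6.87 in DMT vs SD. In SHAM vs SD the estimated log2 fold-change was then -0.21, whereas with all rats it was 1.93 (adjusted p=0.11, edgeR). Leaving out these rats removes the one SHAM rat within the DMT range and thereby narrows the spread, so no p-value is given for Scd without them.

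Thrsp was close to the limit of detection in most rats and was not called in any comparison. DMT rats had 0.856 (rat 316), 0.391 (rat 325), 0.125 (rat 328), 10.8 (rat 329), 0.112 (rat 341) and 0.402 CPM (rat 347). SHAM rats had 0.198 (rat 311), 0.241 (rat 315), 0.486 (rat 317), 2.20 (rat 321), 0.184 (rat 333), 0.415 (rat 334) and 7.51 CPM (rat 340), and SD rats 0.208 to 0.975 CPM (median 0.386). Apart from rats 329, 321 and 340, which had 240, 45 and 126 counts, every rat had 3 to 21 counts of Thrsp, and the 3 groups overlapped. DMT rats differed from SHAM rats by a log2 fold-change of 0.41 (95% confidence interval -1.61 to 2.42, adjusted p=0.808, edgeR) with all rats, an interval that includes a 1.3-fold difference in either direction. The estimate turned on single rats, as it was -2.04 without DMT rat 329, 1.72 without SHAM rat 340 and 0.27 without rats 329, 321 and 340.

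Scd and Thrsp were far above the group median in the same 3 rats, and the other 4 genes were close to it. In rat 329 the level was 10.8-fold (Scd) and 27.6-fold (Thrsp) that of the median of the other DMT rats, compared with 0.90-fold to 1.07-fold for Srebf1, Acly, Acaca and Fasn. SHAM rat 340 had 20.5-fold and 22.9-fold the median of the other SHAM rats, compared with 0.89-fold to 1.13-fold for the other 4 genes. In SHAM rat 321 the values were 3.79-fold and 6.71-fold, compared with 0.87-fold to 1.10-fold. These rats were singled out by these values, so the figures are a description.

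The 23 genes were chosen for being high in these 3 rats, so that their level there is fixed by the choice. Their summed expression was 1274 CPM in rat 329, 865 CPM in rat 340 and 334 CPM in rat 321. Among the other rats the highest sums were 164 CPM (DMT rat 316), 81.1 CPM (DMT rat 325) and 79.2 CPM (SD rat 355), and these rats also had the highest Scd level of the rest of their groups. The part of this shared signal in the levels of Scd and Thrsp was not tested. DMT rats 341, 347 and 328 had sums of 8.63, 17.8 and 20.6 CPM, within the range of the SD rats (3.59 to 79.2 CPM). They had 7.51 to 8.86 CPM of Scd and 0.112 to 0.402 CPM of Thrsp. These rats were picked by their sums after the values had been seen, so the figures are a description.

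**Figure D4:**
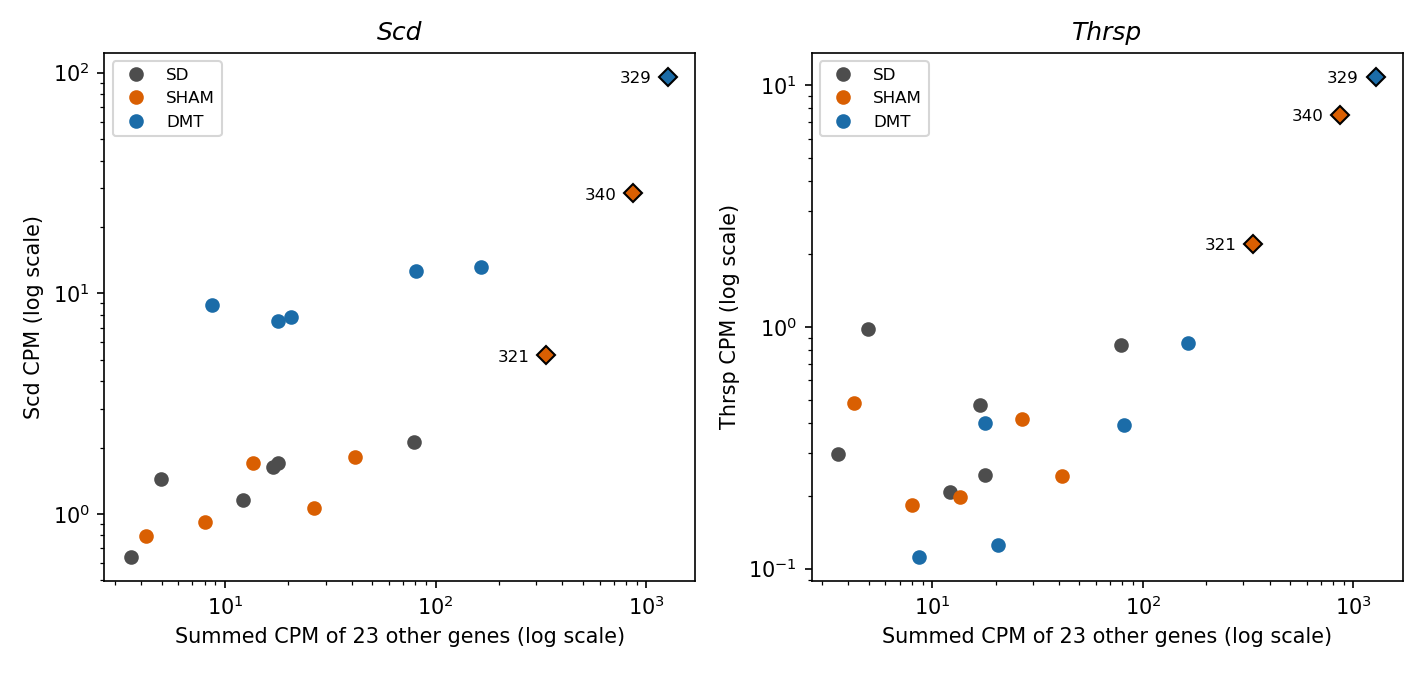
CPM of Scd and Thrsp (vertical axes, logarithmic) against the summed CPM of the 23 other genes that were high in DMT rat 329 and SHAM rats 321 and 340 (horizontal axes, logarithmic); each point is a rat, and diamonds mark these 3 rats, which lie at the right because the 23 genes were chosen in them. DMT rats with low sums had 7.51 to 8.86 CPM of Scd and 0.112 to 0.402 CPM of Thrsp. They were picked by their sums after the values had been seen, and how far these levels follow the sums was not tested.

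To compare levels between genes, CPM was divided by exon length in kilobases. In DMT rats the order was Srebf1 (79.6 ± 14.0 CPM per kilobase, SD, n=6), Acly (38.9 ± 2.25), Fasn (24.1 ± 3.68), Acaca (11.7 ± 0.71), Scd (5.17 ± 7.47) and Thrsp (1.65 ± 3.32). In SHAM rats Acly (36.3 ± 2.30 CPM per kilobase, n=7) and Srebf1 (31.6 ± 5.17) led, followed by Fasn (13.6 ± 0.97), Acaca (8.81 ± 0.99), Thrsp (1.25 ± 2.11) and Scd (1.22 ± 2.16). SD rats had 44.5 ± 4.52 CPM per kilobase of Srebf1 (n=6), 43.1 ± 2.88 of Acly, 16.0 ± 0.89 of Fasn, 7.37 ± 0.70 of Acaca, 0.40 ± 0.25 of Thrsp and 0.31 ± 0.11 of Scd. Srebf1 and Acly thus lay within the spread between rats of each other in SD and SHAM rats, as did Scd and Thrsp in SHAM and SD rats. By this measure Srebf1 exceeded 91.3% of the genes tested in DMT rats, 77.4% in SHAM and 83.1% in SD rats. Scd exceeded 3.81% of the genes in SD rats and 31.2% in DMT rats. The means of Scd and Thrsp in SHAM and DMT rats were set by rats 329, 321 and 340. Without them Scd had 2.13 ± 0.58 CPM per kilobase in DMT (SD, n=5), above 19.8% of the genes, and 0.27 ± 0.10 in SHAM rats (SD, n=5). Thrsp then had 0.29 ± 0.24 CPM per kilobase in DMT and 0.24 ± 0.11 in SHAM rats, which puts Scd before Thrsp in SHAM rats by less than the spread between rats.

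The spread between rats of a group also differed between the genes. On the log2 scale, the SD of Acly was 0.08 in DMT, 0.09 in SHAM and 0.10 in SD rats, below the median over all genes of 0.12, 0.18 and 0.16. The SD of Fasn in DMT rats was 0.23, which exceeded that of 82.5% of all genes, whereas in SHAM rats it was 0.10 (above 18.8% of genes) and in SD rats 0.08 (above 13.2%). Srebf1 had an SD of 0.23 in DMT (above 83.6% of genes), 0.22 in SHAM (above 61.9%) and 0.15 in SD rats (above 47.4%). For Scd the SD was 1.36 in DMT and 1.6 in SHAM rats, larger than that of 99.7% and 99.8% of all genes. Even in SD rats, none of which was among the 3 named, Scd varied more than 93.7% and Thrsp more than 95.2% of all genes, at 15 to 53 and 5 to 21 counts.

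Of all other genes tested, ENSRNOG00000009570 on chromosome 7 (rn5 chr7:120132151-120137599, forward strand) had the pattern most like the mean standardized log2 level of the 6 genes, with a Pearson r of 0.91 over the 19 rats. Its expression was 22.0 ± 4.15 CPM in DMT (SD, n=6) and 7.68 ± 2.25 CPM in SHAM rats (SD, n=7), and it ranged from 6.52 to 13.0 CPM in the 6 SD rats. The next was ENSRNOG00000026958 (rn5 chr4:62123742-62128007, reverse strand), with an r of 0.892 and 6.32 ± 0.94, 3.57 ± 0.48 and 3.79 ± 0.80 CPM in the same groups. Both r values include the differences between groups, are given as a measure of likeness, and carry no test.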

How the data were processed

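Renal cortical RNA-seq of 21 rats (6 SD, 9 SHAM, 6 DMT) was used. Per the file headers, the labels and the study's methods, the authors trimmed reads with Trim Galore and mapped them to rn5 with STAR, and featureCounts 1.6.4, set to the reverse strand, then summed fragments over the exons of each gene. The deposited values are these counts per gene, not normalized, and fragments with several positions or genes were left out.

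The 6 genes and the tests were chosen with earlier results of these data known. SHAM libraries under 1000000 counts were left out, as the rule for this gene set asks. Among the 19 rats used, no pair of libraries of a group was alike within sampling noise (lowest chi-square per degree of freedom 9.11). Genes were filtered with filterByExpr (minimum count 10, minimum total 15), normalized by TMM and tested in a quasi-likelihood model of 19 rats in edgeR 4.0.16 (R 4.3.3) across all genes. The thresholds are those of the study's methods. DESeq2 1.42.0 was an alternative. The scripts were tested on simulated data. Spread and likeness were computed on log2(CPM + 0.5). P-values set the difference between groups against the spread between rats, estimated over the 3 groups together, and floors cover counting error only. The genes named are the 6 members and the 2 genes most like their mean. Other lists, fixed by symbol, were not analysed here, since 0 identifiers matched the reference table. The symbols of the 6 genes come with the rule. Alternatives that leave out rats 329, 321 and 340 together, or estimate dispersions robustly, were chosen after seeing the data. Promoter windows are from RefSeq (GRCr8).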

Additional observations from a re-analysis of the deposited data

Results flagged for a closer look

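Each gene was examined in each group for a rat far from the others by Dixon's criterion, in 18 groups of 6 or 7 rats, where chance gives about 1 in 20 (0.9 here); 5 values stood out. Scd was 95.6 CPM in DMT rat 329 and 28.4 CPM in SHAM rat 340. Thrsp was 10.8 CPM in DMT rat 329 and 7.51 CPM in SHAM rat 340. Srebf1 was 365 CPM in DMT rat 341, where the gap to the next DMT rat was 63.4% of the range of the group. Rat 341 was not above its group in the other 5 genes by this criterion, and without it the log2 fold-change of Srebf1 in DMT vs SHAM was 1.24. The causes of these values were not tested.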

How the results depend on the processing

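Srebf1 and Fasn kept their direction and call in DMT vs SHAM and DMT vs SD under all 31 alternatives run (log2 fold-change in DMT vs SHAM 1.24 to 1.42 for Srebf1 and 0.77 to 0.89 for Fasn), and Acaca did so in DMT vs SD. Acaca in DMT vs SHAM (0.41) was not called when 1.3-fold was tested in the model (adjusted p=0.986), or without rats 329, 321 and 340 (0.37). Srebf1 in SHAM vs SD (-0.49) was not called when 1.3-fold was tested in the model, leaving 0 of 6 genes there (glmTreat of edgeR, adjusted p=0.401 for Srebf1), while 4 genes had an unadjusted p-value under 0.05 in the quasi-likelihood test and DESeq2 called 1. With no fold-change threshold 4 genes were called in SHAM vs SD, adding Fasn (-0.23), Acaca (0.26) and Acly (-0.25). Scd in DMT vs SHAM was called with all SHAM libraries kept (2.12, adjusted p=0.0462, edgeR). It was not called with the SHAM libraries under 1000000 counts summed and kept (2.115, adjusted p=0.0535, edgeR). Without rats 329, 321 and 340 the estimate was 2.99, which is no support for a difference, as these rats were chosen by Scd itself, and it ranged from 0.84 to 3.65 when 1 rat was left out. Without these 3 rats the estimates in SHAM vs SD turned negative for Scd (-0.21) and Thrsp (-0.69), as did Thrsp in DMT vs SD (-0.42). Leaving out rats chosen for high Scd and Thrsp lowers these estimates by itself, so the change of sign is a description. With 1 rat left out, Thrsp ranged from -2.04 to 1.72 in DMT vs SHAM and from -0.42 to 2.31 in DMT vs SD, the lowest being without rat 329. DESeq2 gave no adjusted p-value for Scd, and Thrsp was not tested with 10 counts required in every rat or when each fit held just the pair of groups compared. All genes called numbered 2975 in DMT vs SHAM with no fold-change threshold and 461 with 1.3-fold tested in the model, compared with 1684 as reported. The corresponding numbers were 5131, 810 and 2681 for SHAM vs SD, and 4682, 1091 and 2663 for DMT vs SD. Leaving out each rat changed no call of Srebf1, Fasn, Acaca or Acly. Depth limits the level of Thrsp in single rats, which had 3 to 21 counts apart from these 3 rats.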

Other observations

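In the SHAM libraries left out, rats 343 and 348, 3 counts equal 24.7 and 29.5 CPM. Rat 343 had 19 counts of Acly, 13 of Fasn, 7 of Srebf1, 4 of Acaca, 2 of Thrsp and 1 of Scd. Rat 348 had 25 counts of Acly, 9 of Fasn, 18 of Srebf1, 5 of Acaca, 0 of Thrsp and 1 of Scd. Among the 19 libraries used, SHAM rat 333 and DMT rat 328 had the most genes at least 4-fold below the median of the other rats of their group, 76 and 55, compared with 0 to 13 in the other rats.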
